A study of Homo sapiens with 8 samples.

Results

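Gene expression was measured in PC3 cells, a human prostate cancer line established from a bone metastasis, after transfection with a precursor of miR-99a-3p. The data are 1 2-colour microarray of the 8 in the series, chosen by its label, on which RNA of the transfected cells carried the dye Cy5 and RNA of mock PC3 cells, labelled as given no transfection, carried Cy3. All gene probes of that array were considered: 43317 genes had a probe, 20545 were well above background in at least 1 channel and 17452 in both, and those 17452 genes carry a ratio here. The transfected and mock cells therefore differed in the precursor and in the transfection itself, and no control precursor was hybridised on this array. The time after transfection is not given in the sources used here.

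The other 7 arrays lay on the same slide and give values to set beside these. FaDu cells, a hypopharyngeal carcinoma line, received the same strand on 1 array and its partner miR-99a-5p on another. PC3 cells received miR-100-3p, miR-150-3p or miR-150-5p on an array each, and PANC-1 cells, a pancreatic carcinoma line, a pair of siRNAs against FOXQ1, each against mock cells of the same line. Whether the PC3 arrays shared 1 mock RNA is not stated in the labels. Each condition had 1 array, so no difference could be tested, no p-value is given, and "higher" and "lower" describe this array alone.

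MicroRNAs guide Argonaute proteins to messenger RNAs, mostly in the 3′ untranslated region, through bases near their 5′ end known as the seed, and a paired messenger is broken down or less translated. A precursor gives a duplex with a 5p and a 3p strand. For miR-99a the 5p strand is the abundant guide strand, and the 3p strand, often called the passenger strand, has another seed and so other possible targets. The study asked which genes the passenger strand lowers in prostate cancer cells. It built a list of 30 putative targets from genes with predicted sites in their 3′ untranslated regions that were lower on this array. That list is left aside in the accounts of single genes here, which cover the genes that were higher and the genes that were lower outside it.

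The mature strands that bear on the comparison are shown because their seeds decide which letters were looked for in the probes. Seed bases 2 to 8 are in capitals, and sequences and positions are from RefSeq, build GRCh38.p14.
hsa-miR-99a-3p: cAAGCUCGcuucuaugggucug
hsa-miR-99b-3p: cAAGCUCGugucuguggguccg
hsa-miR-100-3p: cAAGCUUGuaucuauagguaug
hsa-miR-99a-5p: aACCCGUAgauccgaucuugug
The strand transfected here lies at chr21:16539138-16539159 on the plus strand. It shares its whole seed with miR-99b-3p. It does not share it with miR-100-3p, the strand used on another PC3 array, nor with its own partner miR-99a-5p.

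On the log2 scale of transfected over mock signal, the median of the 17452 genes was 0.07, and the quartiles were -0.27 and 0.37. A log2 ratio above 1 was seen for 730 genes, or 4.18% of them, and one below -1 for 697, or 3.99%. The tails differed in depth: 46 genes (0.264%) were above 2 and 109 (0.625%) were below -2. With another background correction and dye normalization (normexp with an offset of 50, and loess), 286 genes were above 1 and 531 below -1. The even split into higher and lower genes therefore depended on that step. An added offset draws the ratios of dim genes towards 0, and its share in the change was not tested. The higher genes were dim in mock cells, with a median mock signal of 228 for those above 1 and 81.2 for those above 2, against 692 for all genes. The lower genes were bright, with a median mock signal of 1507 below -1. The filter shaped this contrast, since a gene above background in both channels could be much lower only from a bright mock signal. Where a gene had another probe measured in both channels, its ratio had the same sign for 155 of 160 genes above 1 and 129 of 135 below -1, against 72.6% of all genes with such a probe. It passed the same threshold for 60 of the 160 and 83 of the 135. The scanner software estimated an error for the ratio of each spot, called the spot error here, with a median of 0.21 on the log2 scale. It is not a spread between spots. For 283 probes with at least 5 spots above background in both channels, the median standard deviation between spots was 0.06. It was larger for DTL (0.18 over 9 spots) and EXO1 (0.26 over 10 spots), which were among the lowest genes. Spike-in RNAs of known ratio gave a slope of 0.90 on this array, so ratios were somewhat compressed.

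**Figure D1:**
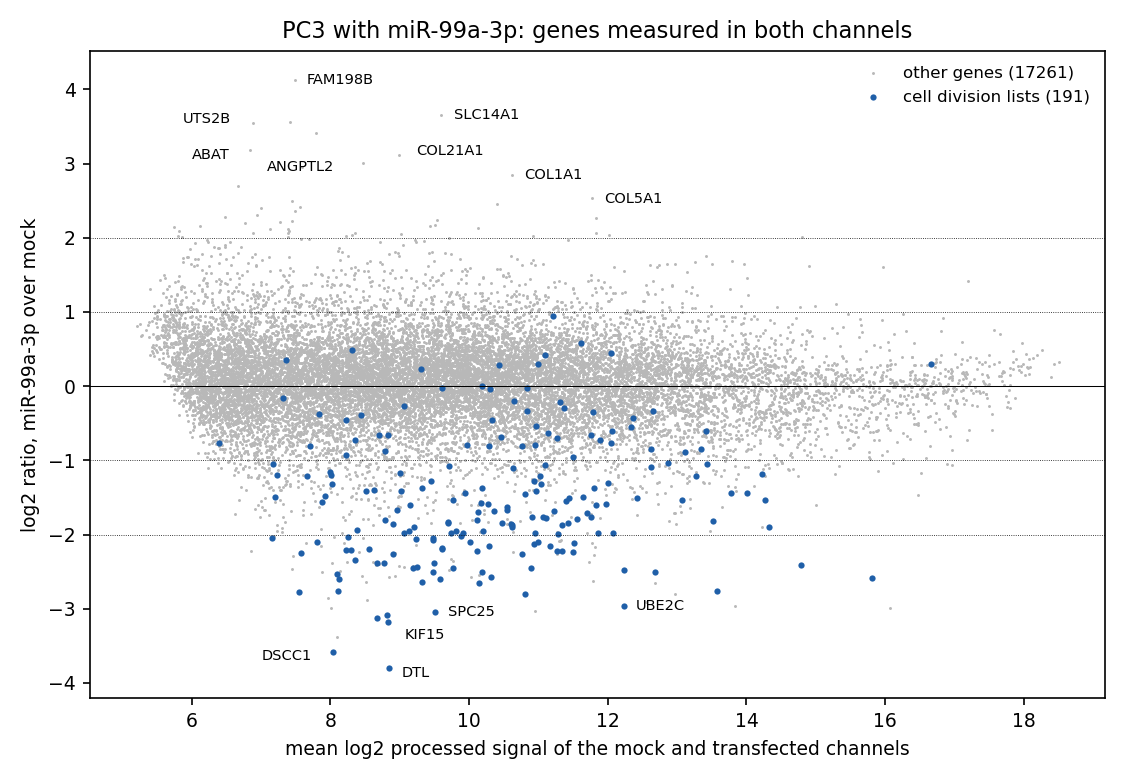
Log2 ratio of miR-99a-3p over mock (vertical axis) against the mean log2 signal of both channels (horizontal axis) for the 17452 genes measured in both channels of the PC3 miR-99a-3p array. Blue points are the 191 measured genes of the 8 cell division lists outside the study's list, of which 181 lie below 0, and dotted lines mark ratios of 1, 2, -1 and -2.

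All 8 genes listed as present in PC3 (KRT8, KRT18, KRT19, VIM, CD44, EGFR, CAV1 and EPCAM) were measured in both channels, as they were on the FaDu and PANC-1 arrays, so they do not tell the lines apart. Of 8 luminal prostate genes listed as low in PC3 cells, 4 were measured in both channels, TMPRSS2 and STEAP2 among them, KLK2 in mock cells only, and KLK3, FOLH1 and ACPP in neither. Of 8 squamous genes, 5 were in neither channel, KRT5, KRT14 and TP63 among them, and of 8 leukocyte and endothelial genes, HBB and PECAM1 were the 2 measured in both. The 8 PC3 genes were themselves all below 0, with a median of -0.61 and a range of -1.06 to -0.26.

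Genes whose probe held letters that pair with the miR-99a-3p seed were lower than other genes. No transcript or untranslated region sequences were used here, so the search covered the 60-base probes, a small part of each messenger. The letters GAGCTT pair with seed bases 2 to 7, and 287 of the 17452 genes (1.64%) had a probe that held them. Their median log2 ratio was -0.15, with quartiles of -0.60 and 0.20, which put the median 0.22 below that of all genes (a difference of -0.22). Of the 287 genes, 62.7% were below 0, against 44.2% of all, and 9.41% were below -1, against 3.99%.

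The share of genes with these letters was larger among lower genes. It was 3.87% of the 697 genes below -1 (27 genes), of which the 109 below -2 had 3 genes or 2.75%. It was 3.36% of the 1813 between -1 and -0.5, 1.77% between -0.5 and 0, 1.29% between 0 and 0.5, 0.763% between 0.5 and 1, and 0.411% of the 730 above 1 (3 genes). The reverse complement AAGCTC, with the same G and C content, ran from 1.72% below -1 through 1.93% between -1 and -0.5 to 1.10% above 1, a smaller difference in the same direction. Its 294 genes had a median of 0.03, or -0.04 from all genes. Probes are given in the sense of the messenger: the polyadenylation signal AATAAA was in 8.51% of the probes of protein-coding genes and its reverse complement in 4.44%. The longer match to seed bases 2 to 8, CGAGCTT, was in 12 probes, of which 1, for CPTP, a lipid transfer protein, was below -1, at -1.25.

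The same letters were followed on all 8 arrays, each gene by the same probe. The median difference of GAGCTT genes from all genes was -0.20 in FaDu with miR-99a-3p. It lay between -0.05 and -0.01 on the 6 arrays with other strands or siRNAs. The letters that pair with the miR-100-3p seed, AAGCTT, gave -0.12 on the miR-100-3p array and -0.07 on the array described here. Counted by probe instead of by gene, the miR-99a-3p difference in PC3 was -0.21 over 380 probes. Among genes with a mock signal above the median it was -0.29, among the dimmer ones -0.24, and with the cell division and histone lists left out -0.22. A match is a description of letters in the probe, and pairing in cells was not measured.

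**Figure D2:**
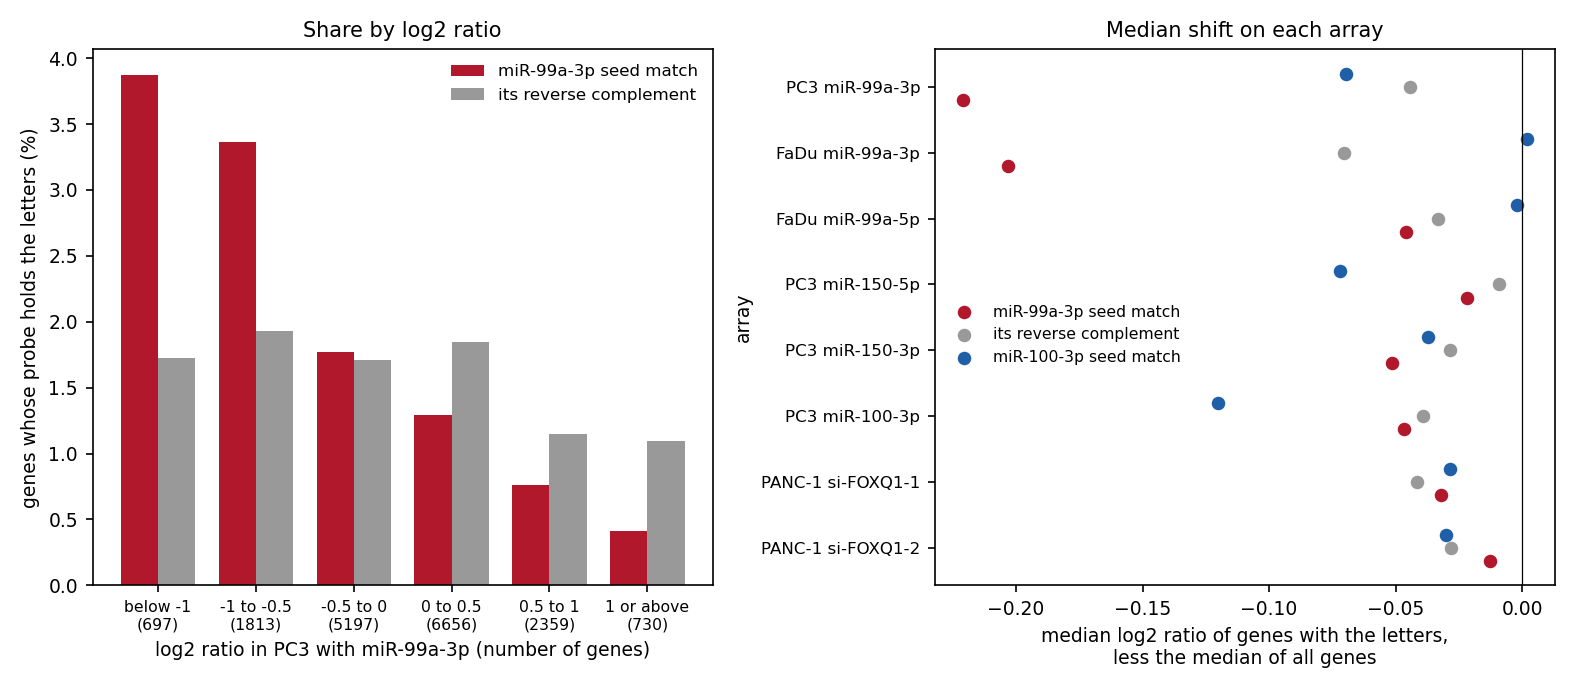
Left, percentage of genes whose probe holds the letters that pair with miR-99a-3p seed bases 2 to 7 (red) or their reverse complement (grey), by log2 ratio in PC3 with miR-99a-3p; red falls from 3.87% below -1 to 0.411% at 1 or above. Right, median log2 ratio of the genes with the letters less the median of all genes on each of the 8 arrays, for the same letters and for those of miR-100-3p (blue); red lies at -0.22 and -0.20 on the miR-99a-3p arrays.

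The study's list rests on sites predicted in 3′ untranslated regions, which a probe can miss. Among the 27 genes below -1 with the letters in the probe, none is in that list and 3 are in the cell division lists. The lowest 3, and 3 others that were below -1 in FaDu cells with the same strand as well, are shown with the letters in capitals (probe positions on hg19, in the sense of the messenger).
MBD2, chr18:51681423-51681442, minus strand: tgaagctGAGCTTttgatgc
BUB1B, chr15:40512840-40512859, plus strand: tcttgggGAGCTTgcagcag
NUSAP1, chr15:41673179-41673198, plus strand: ctcagtgGAGCTTctgagtt
AGPAT9, chr4:84526585-84526604, plus strand: taacaaaGAGCTTagttttc
C1orf43, chr1:154179773-154179792, minus strand: gttcttaGAGCTTgtgtcta
KIAA1522, chr1:33240353-33240372, plus strand: ggtaaatGAGCTTgacctag
MBD2, which binds methylated DNA, had a signal of 8771 in mock and 1425 in transfected cells, a log2 ratio of -2.62 with a spot error of 0.32. In FaDu cells with miR-99a-3p its ratio was -2.31, and on the other 6 arrays it lay between -0.34 and 0.15. AGPAT9, an acyltransferase of glycerolipid synthesis, was at -1.40 in PC3 and -1.90 in FaDu. C1orf43 stood at -1.19 and -1.22, with a second probe at -1.02 in PC3. KIAA1522 stood at -1.02 and -1.18, and CHRAC1, a subunit of a chromatin remodelling complex whose probe is not printed, at -1.47 and -1.25. BUB1B, a spindle checkpoint kinase, and NUSAP1, a spindle protein, went the other way in the lines: they were at -2.26 and -2.12 in PC3 and at 0.93 and 0.79 in FaDu.

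In all, 50 genes outside the study's list were below -1 in both lines with miR-99a-3p. They were 8.18% of the 611 such genes measured in FaDu, where 5.48% of all genes were below -1. More of the 611 were above 1 in FaDu, 128 genes or 20.9%, against 7.68% of all genes. None of the 50 is in the cell division or histone lists, and 5 had the letters in the probe, against 1.69% of the genes measured on both arrays. C12orf75 was at -2.09 in PC3 and -1.68 in FaDu. SERTAD2, a transcriptional regulator, was at -1.53 and -1.68, RBM3, a cold-induced RNA-binding protein, at -1.51 and -1.38, and WTAP, a partner of the RNA adenosine methyltransferase, at -1.48 and -1.53, though its second probe in PC3 was at -0.05. CANX, an endoplasmic reticulum chaperone, was at -1.01 by its brightest probe; in FaDu it was at -2.36.

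The deepest ratios belonged to genes of DNA replication and mitosis. Dividing cells copy their DNA in S phase and part the chromosomes in mitosis, and the messengers of both processes are made in waves under E2F, B-MYB and FOXM1 transcription factors. In bulk RNA, fewer cells of a phase and less RNA per cell cannot be told apart. Of 217 genes in 8 lists of cell division genes outside the study's list, 191 were measured in both channels, with a median of -1.59. Below 0 were 181 of them and below -1 were 139, or 72.8%, against 3.99% of all genes. These lists held 13 of the 20 lowest genes and 56 of the 96 below -2. The study's own list was chosen by this array as well as by predicted sites. The lists used here were also drawn up with results of these data known, so their low medians are a description and no independent evidence.

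Replication genes were lower throughout: all 39 measured members of the list, which like the other lists leaves out the study's own, were below 0, with a median of -1.70. DTL, the substrate receptor of a ubiquitin ligase that acts on replicating DNA, was the lowest gene of the array outside the study's list, with a signal of 1726 in mock and 124 in transfected cells, a ratio of -3.80 with a spot error of 0.41. DSCC1, which helps load the sliding clamp, went from 906 to 75.8, a ratio of -3.58. CDC45, part of the replicative helicase, was at -2.80 and FEN1, the flap endonuclease, at -2.64. The smallest differences were those of POLE at -0.81, LIG1 at -0.79 and RPA2 at -0.60, whose second probe gave -0.57. Deoxynucleotide supply had a median of -1.04 over 15 genes, led by TYMS, thymidylate synthase, at -2.76 and TK1, thymidine kinase, at -2.58. UMPS, SLC29A1 and CTPS1 were between -0.43 and -0.22.

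The kinetochore and spindle checkpoint list had the lowest median, -1.95 over 31 genes, with 27 below -1. ZWILCH was at -3.12, SPC25, an NDC80 complex subunit, at -3.04 and the checkpoint kinase TTK at -2.77, while NSL1 was at -0.38. Mitotic kinesins and spindle proteins had a median of -1.94 over 30 genes, and KIF15, a spindle kinesin with a signal of 1376 in mock and 152 in transfected cells, was lowest at -3.18. KIF14 was at -2.43 and KIFC1 at -2.26. Mitotic kinases and proteolysis had a median of -1.63 over 24 genes, of which 23 were below -1. UBE2C, the ubiquitin-conjugating enzyme of the anaphase-promoting complex, went from 13399 to 1719, a ratio of -2.96, and CDC25B, at -0.33, was the exception. Every measured member of these lists lay below 0.

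Cyclins and their kinases had a median of -0.56 over 11 genes, 5 of them below -1. The lowest were CCNE2 at -2.60, CCNA2 at -2.20 and CCNB1 at -1.97, and the highest CCND3 at -0.03, CCND1 at 0.44 and CDK6 at 0.94. Among cohesion and recombination genes EXO1, a DNA repair exonuclease, was at -2.76. XRCC3 was at 0.30 by its brightest probe and -1.21 by another, and WAPAL at 0.42 and -0.60, so their direction depended on the probe. Among regulators, E2F2 was at -3.08, FOXM1 at -2.57 and MYBL1 at -2.45, while RB1 at 0.30, LIN52 at 0.35 and E2F6 at 0.59 were not lower. CDC25C, SKA1, FBXO43, CENPH and FANCA were not well above background in transfected cells, so only bounds hold: SKA1 was at least 5.84-fold lower, CDC25C at least 5.70-fold and FANCA, a DNA repair protein, at least 4.82-fold.

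Histone genes split. The replication-dependent list had a median of -0.27 over 52 genes. Below -1 were 17 (32.7%), against 3.99% of all genes, and above 1 were 9 (17.3%), against 4.18%. HIST1H4C, with a mock signal of 193550 against 24357, was at -2.99 with a second probe at -3.14, and HIST1H4L was at -2.97. Of 11 H4 genes of the main cluster only 6 were below 0, with a median of -0.24 and a highest value of 0.53. Of 10 H2A genes of that cluster 7 were below 0. Of 10 H3 genes 9 were below 0, whereas of 13 H2B genes 12 were not, and 7 were above 1. HIST1H2BK was at 1.65, with a second probe at 1.30, and HIST1H2BC at 1.43. HIST2H2AA4, an H2A gene outside the list, was at 2.06. These copies are nearly identical in their coding parts, so probes can bind messengers of a sister gene and the values of single copies are uncertain.

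Of the other 40 genes below -2 outside the study's list, 6 were listed histones. DIAPH3, an actin nucleator, was at -2.99, FAM111B at -2.88, UHRF1, which carries DNA methylation through replication, at -2.54 with a second probe at -2.33, POLQ at -2.49 and TOP2A, the topoisomerase of mitotic chromosomes, at -2.43. Others are not known for a part in cell division: the cytidine deaminases APOBEC3B at -2.37 and APOBEC3G at -2.24, the reductase DHRS2 at -2.16, C12orf75 at -2.09 and MBD2 at -2.62. TMEM38B was at -2.29, but its second probe was at -0.72. These genes were picked out after their values were seen.

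Promoters of the lowest genes often held the letters of cell cycle promoter elements. Genes of mitosis are known to carry a cell cycle homology region, with the letters TTTGAA, near their start site, where the DREAM and B-MYB complexes bind. RefSeq promoters (GRCh38.p14, from 250 bases before to 50 after the first listed start) were found for 10139 of the 12310 protein-coding genes measured, for 82.0% of those below -1 (483 genes) and for 80.4% of those below -2 (86 genes). On either strand TTTGAA was in 41.9% of the promoters of genes below -2, 24.2% of those below -1 and 9.56% of all. CCAAT was in 61.6%, 47.0% and 36.9%, the E2F letters TTTCCCGC or TTTGGCGC in 17.4%, 10.1% and 3.63%, and TATAAA in 15.1%, 7.66% and 6.04%. Leaving out the study's list gave 40.3% for TTTGAA below -2, and counting any annotated start of a gene gave 43.0% against 13.6% of all. For genes above 1 promoters were found for 77.0%, too few for a comparison.

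Shown here are 5 of the lowest genes with TTTGAA in the promoter, outside histones and the study's list. Genes on some chromosomes were left out of this display. The letters are in capitals, on the strand of the gene, so that TTCAAA is a match on the other strand.
KIF15, chr3:44761748-44761775, plus strand: caagcgccaaaTTCAAAtttgcggccat
SPC25, chr2:168890417-168890444, minus strand: agtgcactaggTTTGAAatcggaaagtt
SHCBP1, chr16:46621349-46621376, minus strand: gtccgcggaaaTTTGAAatggctgacgg
CENPF, chr1:214603224-214603244, plus strand: gctgcgggcagTTTGAAttag
POLQ, chr3:121545969-121545996, minus strand: ggaggtttgagTTTGAAgactggcggga
The capitals began 35 bases before the start of KIF15, 3 bases before that of SPC25, and 14, 40 and 3 bases after those of SHCBP1, CENPF and POLQ. Their log2 ratios were -3.18, -3.04, -2.64, -2.51 and -2.49.

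The genes that were higher had less in common and a weaker mock signal. Of the 20 highest, 13 had a mock signal under 100 and 7 had no protein-coding RefSeq entry. The 20 lowest could not be so dim in mock cells, because ranked genes had to be above background in transfected cells too. FAM198B (GASK1B), a Golgi-associated protein whose probe lies at chr4:159046156-159046215 on hg19, minus strand, went from 42.9 in mock to 748 in transfected cells, a log2 ratio of 4.12 with a spot error of 0.44. With normexp and loess it was at 2.55, and less the mean of the other PC3 arrays at 2.32, below SLC14A1 in both. SLC14A1, the urea transporter of red cells (probe at chr18:43330241-43330300 on hg19, plus strand), went from 219 to 2762, a ratio of 3.66 with a second probe at 2.75, and 3.07 and 3.62 under those settings. UTS2B, a urotensin peptide, was at 3.55 from a mock signal of 34.6, but at 1.97 with normexp and loess. ABAT, which breaks down the transmitter GABA, was at 3.18 from 38.1, but at 1.70 with normexp and loess, and ANGPTL2, a secreted angiopoietin-like protein, at 3.01 from 125. Among non-coding and unnamed transcripts, lnc-C19orf26-2 was at 3.56, LOC100131372 at 3.42 and ENST00000556466 at 2.70.

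Collagens made up 3 of the 20 highest genes. COL21A1 went from 173 to 1505, a ratio of 3.12. COL1A1, a chain of the main fibrillar collagen (probe at chr17:48261509-48261568 on hg19, minus strand), went from 588 to 4217, a ratio of 2.84 with a spot error of 0.33. COL5A1 was at 2.53, with a second probe at 1.25. Over all 23 collagen chain genes measured, a family taken after these values were seen, 20 were above 0 and 9 above 1, with a median of 0.85, where 55.8% and 4.18% of all genes were. The extracellular matrix list had a median of 0.84 over 36 genes, of which 28 were above 0 and 10 (27.8%) above 1. That median was 0.41 less the mean of the other PC3 arrays, 0.53 less that of all other arrays and 0.49 by the probe of lowest ratio. LAMC1, a laminin chain, was at 1.65, LAMB3, another laminin chain, at -1.04 and LOXL1, a collagen cross-linker, at -0.59. PXDN, a matrix peroxidase that was bright in both channels, went from 14276 to 57511, a ratio of 2.01 with a second probe at 2.01. Integrins had a median of 0.61 over 13 genes, with ITGB8 at 1.78, ITGB1 at 0.99 and ITGA6 at -0.24 by both probes.

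Among the other higher genes, picked by their known role after their values were seen, BMF, a BH3-only activator of apoptosis, went from 577 to 3174, a ratio of 2.46 with a second probe at 2.42 (1.47 less the mean of the other PC3 arrays). TP53INP1, a stress protein, was at 2.17 with a second probe at 1.55. CDK inhibitors had a median of 0.71 over 6 genes, of which 2 (33.3%) were above 1, against 4.18% of all genes. CDKN1C was at 1.54, CDKN2B at 1.40 and CDKN2D at -0.12. BAMBI, a decoy receptor of the TGF-β family, went from 2044 to 8374, a ratio of 2.03. FAM20A, a secretory pathway pseudokinase, was at 2.27 with a second probe at 2.13, SSC5D at 2.49 with 1.93, and AGT, BDNF, TOX and PRDM1 were between 2.09 and 2.23 from mock signals of 27.3 to 80.6.

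Lysosomal genes had a median of 0.47: 30 of 36 were above 0, against 55.8% of all genes, but only 2 above 1, MANBA at 1.13 and CTSF at 1.06, or 5.56% against 4.18% of all genes. Autophagy genes had a median of 0.31 over 20 genes, with GABARAPL1 at 1.23 and a second probe at 1.16. DICER1, which cuts precursors into mature duplexes, was at 1.71 in PC3 and 1.70 in FaDu, whereas AGO2, an Argonaute protein, was at -0.77 and -0.52, and the microRNA machinery list as a whole had a median of 0.18. Genes dim in mock cells only give bounds. The transcription factor SOX30 was at least 10.8-fold higher, IGF2BP1, an RNA-binding protein, at least 9.95-fold, LOC101929713 at least 9.29-fold, with the non-coding LINCR-0001 between the first and second of these, and IL1R2, a decoy receptor of interleukin-1, at least 7.44-fold. On the other PC3 arrays only LINCR-0001 with miR-100-3p was measured in both channels, at 1.07. Without that filter all were above 0 there, apart from LINCR-0001 with miR-150-3p, and SOX30 was at 1.93 to 2.22.

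Of 17 keratins listed, 9 were measured in both channels. All 9 were below 0, against 44.2% of all genes, with a median of -0.57. Below -1 were 4 (44.4%), against 3.99% of all genes. KRT81 at -1.17, KRT7 at -1.12 and KRT80 at -1.09 were lowest. Cytokines had a median of -0.19 over 23 genes, of which 5 (21.7%) were below -1, against 3.99% of all genes. The lowest were CXCL1 at -1.23 with a second probe at -0.87, IL1B at -1.11 and CXCL5 at -1.07. TNFSF10, a death ligand, was at 1.40 from a mock signal of 46.2. Interferon response genes had a median of -0.18 over 33 genes, with ISG20 at -1.41 and BST2 at 1.65. Among immediate early genes MYC was at -1.26 and EGR2 at 1.35, and the list median was -0.39. For p53-responsive genes the median was 0.06 over 23 genes. Above 1 was 1 gene (4.35%), TP53INP1, near the 4.18% of all genes. Below -1 were 2 (8.70%), against 3.99% of all genes: AEN at -1.87 with a second probe at -1.01, and DDB2 at -1.18 with a second probe at -2.07.

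Genes of ATF4 and the unfolded protein response had a median of 0.13 over 30 genes, with VLDLR at 1.41 and DNAJB9 at 1.34, and NRF2 targets one of 0.13 over 21. Hypoxia and glycolysis genes had a median of -0.09, with ADM at 1.34 and ENO1 at -0.93, and cholesterol and fatty acid synthesis one of -0.07, with INSIG1 at 1.15 and MSMO1 at -1.36. Mitochondrial respiration genes had a median of -0.27, at the lower quartile of all genes, with 25 of 30 below 0 and none past 1. The 9 metallothioneins measured lay between 0.19 and 0.37. Reported targets of the partner strand miR-99a-5p had a median of 0.04 over 18 genes, with IGF1R at 1.42 and FZD5 at -0.65. Epithelial and mesenchymal genes had a median of 0.06, with CLDN1 at 1.66 and CLDN4 at -0.88, and neuroendocrine genes one of -0.08 over 5. The 19 reference genes had a median of -0.16, and the highest was B2M at 0.84.

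**Figure D3:**
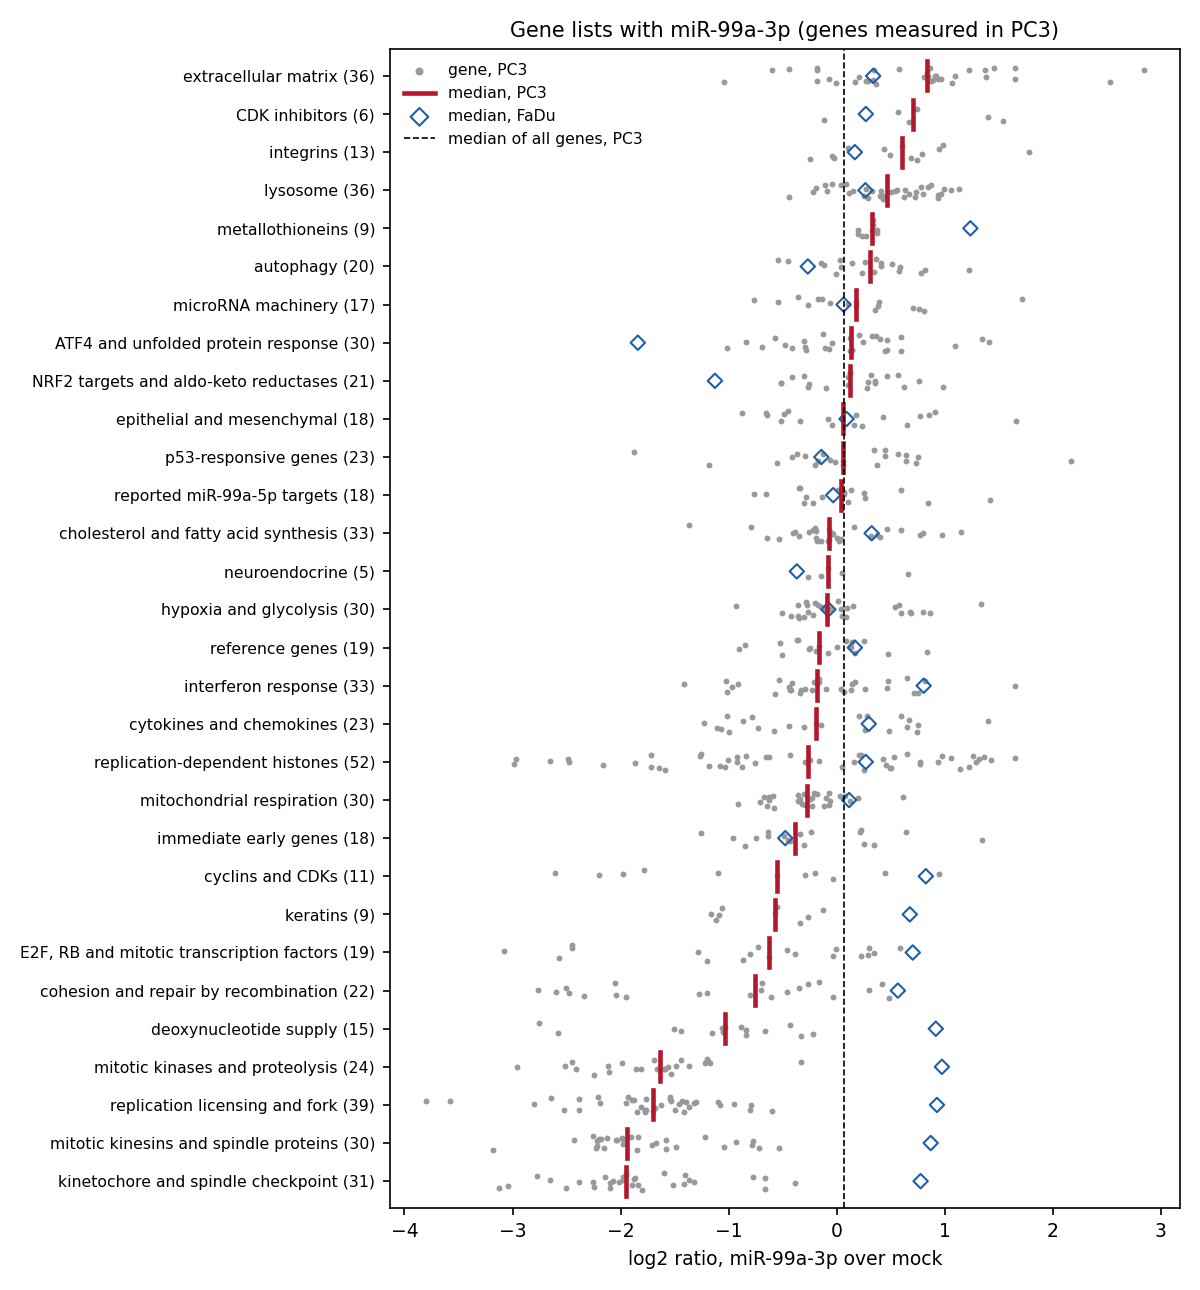
Log2 ratio of miR-99a-3p over mock for the measured members of the 30 gene lists, 1 row a list, with the number of genes measured in PC3. Grey points are genes and red bars medians in PC3, blue diamonds are the medians of the same genes in FaDu cells with miR-99a-3p, and the dashed line is the median of all genes in PC3 (0.07). The kinetochore list lies lowest in PC3, at -1.95, and at 0.78 in FaDu.

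Set beside the other arrays, the lower genes had negative medians in PC3 and positive ones in FaDu. For the 96 genes below -2 outside the study's list the median was -0.92 on the PC3 array with miR-150-3p, -0.53 with miR-100-3p and -0.25 with miR-150-5p. These genes were chosen as extreme on 1 PC3 array, and if the PC3 arrays shared a mock RNA that alone would give values of the same sign, so the medians are a description. In FaDu with miR-99a-3p the median was 0.87, with 86 of the 94 genes measured above 0, and with miR-99a-5p 0.33. On the arrays of PANC-1 cells it was 0.22 and 0.06. After the mean of the other 3 PC3 arrays was subtracted gene by gene, the median of the 8 cell division lists in PC3 with miR-99a-3p was -1.15. Of the 46 genes above 2, 32 were measured in PC3 with miR-150-3p, with a median of 0.72, 36 with miR-150-5p, with 0.58, and 31 with miR-100-3p, with 0.47. Fewer were measured in the other lines, 14 in FaDu under the same strand (median 0.68), and 19 on each PANC-1 array. These genes too were chosen as extreme on 1 PC3 array, and a shared mock RNA would again give values of the same sign. Many were dim in mock cells and were counted only where both channels were above background, which favours higher transfected signals. Their medians are therefore a description as well. Over the collagen chain genes measured, the median was 0.61 in FaDu with the same strand (18 genes) and 0.03 with miR-99a-5p. On the other PC3 arrays it was 0.06 with miR-150-5p, 0.18 with miR-150-3p and 0.15 with miR-100-3p. In PANC-1 cells it was -0.08 and 0.38. Single chains differed between arrays. COL1A1 was at 1.53 in FaDu with the same strand and between 0.14 and 0.54 on the other PC3 arrays. COL5A1 was at 1.37 in FaDu, but at -1.06 in PC3 with miR-150-3p and 0.68 with miR-100-3p. COL21A1 was at 1.30 in PC3 with miR-150-3p, and at 1.07 and 0.84 in PANC-1 cells.

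**Figure D4:**
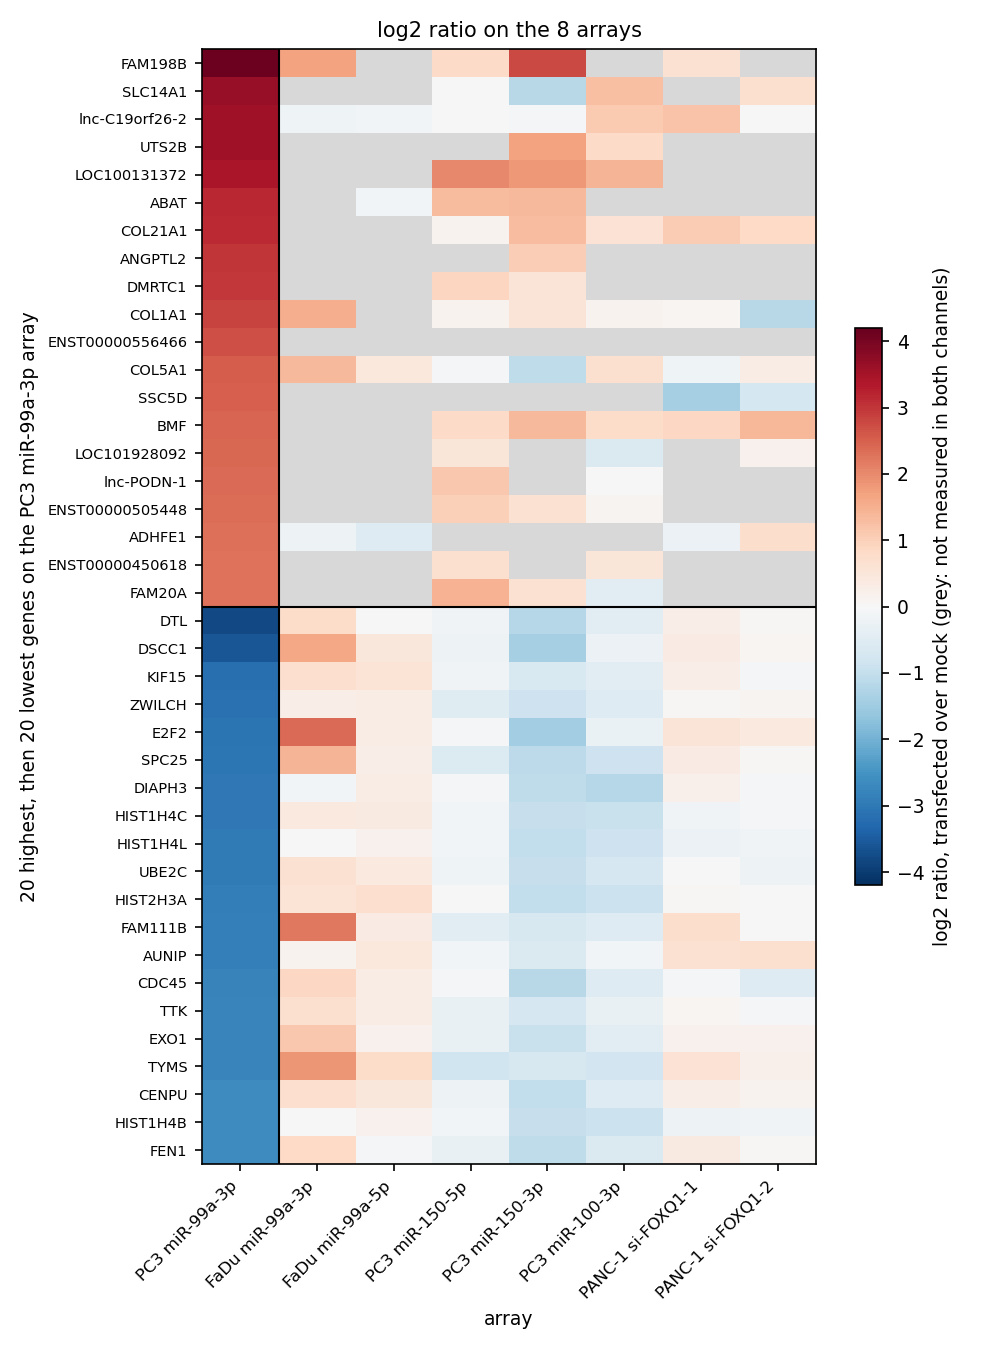
Log2 ratio of transfected over mock on the 8 arrays (columns) for the 20 highest and the 20 lowest genes outside the study's list on the PC3 miR-99a-3p array (rows, from 4.12 for FAM198B to -3.80 for DTL); grey cells were not measured in both channels. Most of the highest genes are grey in FaDu and PANC-1 cells, and the lowest genes are blue or pale on the other PC3 arrays.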

How the data were processed

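RNA of each transfected line (Cy5) and its mock cells (Cy3) was hybridised to Agilent human arrays annotated on hg19, and the authors deposited the scanner output of Feature Extraction 10.7.3.1, whose intensity values are background-subtracted and dye-normalized. Deposited log10 ratios were turned to log2. The deposited value table held the same ratios. Control spots and spots with an outlier flag were left out, values of repeated spots were averaged per probe, and each gene was represented by its probe of brightest mean signal over the 8 arrays. Ratios are given for probes well above background in both channels. For a gene dim in 1 channel the bound is set against the highest signal not called above background there. The genes named are the 20 highest and 20 lowest ratios outside the study's list, the 5 largest bounds each way, and the 3 highest and 3 lowest members of each of 30 lists. Exceptions are stated as chosen after their values were seen, as were the probe letters, the 50 genes low in both lines, and the genes above 2 named by role. The array, lists and rules were chosen with earlier results of these data known. With 1 array per condition there was no test, and the number of arrays limits the precision. Python 3.11.15 and limma 3.58.1 (R 4.3.3) were used. The limma step was checked on simulated data.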

Additional observations from a re-analysis of the deposited data

Results flagged for a closer look

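The same strand gave values of opposite sign in the 2 lines for some results, with 1 array per line, so the differences were not tested. List medians are given here where both were past 0.5 in size. Other lists of opposite sign fell outside that rule. Among them were ATF4 and unfolded protein response genes, at 0.13 in PC3 and -1.84 in FaDu, and NRF2 targets, at 0.13 and -1.13. The median of the 8 cell division lists was -1.59 in PC3 over 191 genes and 0.86 in FaDu over 191 genes. Keratins had a median of -0.57 over 9 genes in PC3 and 0.68 over 8 in FaDu. Among the 40 genes named from the ends of the PC3 array, 6 were past 1 in the opposite direction in FaDu: DSCC1 (-3.58 in PC3, 1.62 in FaDu), E2F2 (-3.08, 2.39), SPC25 (-3.04, 1.43), FAM111B (-2.88, 2.22), EXO1 (-2.76, 1.13) and TYMS (-2.76, 1.87).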

How the results depend on the processing

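No paired analysis was possible because 1 array was run for every condition; leaving out a replicate and blocking on the slide could not be done either. Counts moved most. Above 1 there were 730 genes, but 286 with normexp and loess, 443 after subtracting the mean of the other PC3 arrays, 1982 with no filter on dim probes, 1324 with dim genes at their bound, and 174 at a threshold of 1.5. Below -1 there were 697, but 1519 with probes above background in at least 1 channel, 2520 with no filter, and 261 at a threshold of 1.5. Above 2 there were 46, but 12 with normexp and loess, 103 with at least 1 channel above background, 209 with no filter, 14 and 24 after subtracting the other PC3 or all other arrays, and 8 at a threshold of 3. Below -2 there were 109, but 68 with normexp and loess, 293 with either looser filter, 32 after subtracting the other PC3 arrays, and 8 at a threshold of 3. The median of the 8 cell division lists stayed below 0 in every setting run, and moved most, to -1.15, when the other PC3 arrays were subtracted. The median of the histone list changed sign, to 0.11, with the probe of highest ratio. In all, 8 list medians changed sign in some setting, 3 of them over 0.1 in size as reported: besides histones, cytokines went to 0.02 less the other PC3 arrays and the microRNA machinery to -0.01 with the probe of lowest ratio. Neuroendocrine genes went to 0.33 less the other PC3 arrays, interferon genes from -0.18 to -0.50, and ATF4 genes from 0.13 to 0.49 less all other arrays. All 40 named genes kept their sign wherever they had a value. With normexp and loess 15 of the 40 moved by over 1.5 times, and less the other PC3 arrays 6 of the 37 with a value did. The cause was not tested. The difference for genes with the miR-99a-3p letters was -0.19 with normexp and loess and -0.18 less the other PC3 arrays and 0 with no filter, where the median of all genes was also 0. The share of promoters with TTTGAA below -2 was 31.0% with either looser filter and 30.4% less the other PC3 arrays.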
